A study of Homo sapiens with 4 samples.

Results

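LTR2, LTR2B, LTR2C, LTR8, LTR8A and LTR17 are class I long terminal repeats (LTRs), the flanking regulatory ends of old retroviral insertions, that have been described as promoters or enhancers of human genes. They were chosen by name from a table of LTR subfamilies, in which these 6 stood among 373, and all 6 had a value in every library. The table came from native ChIP-seq, which maps histone marks without cross-linking, in HCT116, an established human colorectal carcinoma line. The antibodies were against H3K9me2 and H3K9me3, histone H3 carrying 2 or 3 methyl groups at lysine 9. Cells had received 5-aza-CdR (decitabine, which is built into DNA in place of cytosine and depletes DNA methyltransferases) at 300 nM, or PBS, for 24 h, and were collected at day 5. Each of the 4 combinations, H3K9me2 after 5-aza-CdR, H3K9me2 after PBS, H3K9me3 after 5-aza-CdR and H3K9me3 after PBS, was 1 library, so no difference below has a replicate check and none was tested.

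LTRs carry the promoter and enhancer sequences of a retrovirus, and a copy that stays in the genome as a solitary LTR can go on acting as a promoter of a neighbouring gene. LTR2 flanks HERV-E, and copies of it serve as alternative promoters of genes such as APOC1, which encodes an apolipoprotein, and EDNRB, which encodes an endothelin receptor. LTR17 flanks HERV-W and drives ERVW-1, the gene of the placental fusion protein syncytin-1, while LTR8 is known for use in placenta. In somatic cells such repeats are kept silent by DNA methylation and by H3K9 methylation, of which G9a and GLP deposit the dimethyl form and SETDB1 the trimethyl form at many retroviral repeats. Each value here is a z-score for a whole subfamily, over all of its copies, so nothing below speaks of the copy at any of these genes.

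Every level below is a deposited z-score, which has no true zero, and the depth behind it is unknown. Across the 373 subfamilies the median z-score was 0.312 for H3K9me2 in 5-aza-CdR and -0.412 in PBS, and 0.468 for H3K9me3 in 5-aza-CdR and -0.504 in PBS. The sources used here do not say which regions set the mean and spread of each library. A higher z-score after 5-aza-CdR is therefore no measure of how much of the mark was gained, and a member is read below by its distance from the median of all subfamilies. That median difference between treatments was 0.702 for H3K9me2, where 372 of 373 subfamilies were higher in 5-aza-CdR, and 0.973 for H3K9me3, where 373 of 373 were.

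On the deposited scale the 6 LTRs fell into 3 patterns. LTR8 and LTR8A stayed close to the median treatment difference of all subfamilies for both marks. LTR2, LTR2B and LTR17 had smaller differences than that median for both marks on each scale tried, except that the H3K9me3 residual of LTR2 from the principal line through both treatments was above its median (0.41 robust SDs). LTR2C had the 4th smallest H3K9me2 difference in the table and an H3K9me3 difference nearer the median. LTR2 was not apart from LTR8A on every scale. On percentile ranks LTR2 lay at -0.27 robust SDs for H3K9me2 and -0.22 for H3K9me3, and LTR8A at -0.43 and 0.22.

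LTR2, an LTR of HERV-E, had an H3K9me2 z-score of -0.134 in 5-aza-CdR, against -0.622 in PBS. Its H3K9me3 z-score was 0.151 in 5-aza-CdR, against -0.542 in PBS. LTR2 was the lowest of the 6 in both PBS libraries and stayed low in both 5-aza-CdR libraries. Its percentile among all subfamilies was 8.18 in 5-aza-CdR and 12.7 in PBS for H3K9me2, and 7.37 in 5-aza-CdR and 12.5 in PBS for H3K9me3.

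LTR2B, a second LTR of the HERV-E group, had an H3K9me2 z-score of -0.122 in 5-aza-CdR, against -0.559 in PBS. For H3K9me3 it had 0.123 in 5-aza-CdR, against -0.511 in PBS. This was the highest H3K9me3 value of the 6 in PBS and the lowest of the 6 in 5-aza-CdR. The H3K9me3 percentile of LTR2B was 5.23 in 5-aza-CdR and 39.8 in PBS, a difference of -34.6 points and the 29th lowest of the 373. For H3K9me2 its percentile was 8.45 in 5-aza-CdR and 21.6 in PBS. The H3K9me3 z-scores in PBS were compressed, with an SD of 0.0354 over all subfamilies. Small z-score gaps in that library therefore make large percentile gaps.

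LTR2C, the most CpG-rich of the 6, had an H3K9me2 z-score of -0.210 in 5-aza-CdR, against -0.498 in PBS. The H3K9me3 z-score of LTR2C was 0.359 in 5-aza-CdR, against -0.522 in PBS. It had the lowest H3K9me2 value of the 6 in 5-aza-CdR, while its H3K9me3 value in 5-aza-CdR was much above those of LTR2 and LTR2B. For H3K9me2 LTR2C stood at percentile 5.50 in 5-aza-CdR and 31.2 in PBS, and for H3K9me3 at 28.3 in 5-aza-CdR and 27.7 in PBS. The H3K9me2 percentile thus differed by -25.7 points between treatments, the 10th lowest of the 373, and the H3K9me3 percentile by 0.536 points.

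LTR17, the LTR of HERV-W, had an H3K9me2 z-score of -0.0309 in 5-aza-CdR, against -0.488 in PBS. Its H3K9me3 z-score was 0.174 in 5-aza-CdR, against -0.519 in PBS. In PBS it was 2nd of the 6 for H3K9me2, behind LTR8A, and 4th for H3K9me3. It took a lower place among all subfamilies after 5-aza-CdR: percentile 16.5 in 5-aza-CdR and 33.9 in PBS for H3K9me2, and 8.18 in 5-aza-CdR and 31.5 in PBS for H3K9me3.

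LTR8 had an H3K9me2 z-score of 0.137 in 5-aza-CdR, against -0.532 in PBS, and an H3K9me3 z-score of 0.407 in 5-aza-CdR, against -0.515 in PBS. LTR8A had 0.184 in 5-aza-CdR and -0.470 in PBS for H3K9me2, and 0.445 in 5-aza-CdR and -0.511 in PBS for H3K9me3. LTR8 and LTR8A were the top 2 of the 6 in both 5-aza-CdR libraries. Between treatments their percentiles differed by 1.88 points (LTR8) and -6.43 points (LTR8A) for H3K9me2 and by -1.07 and 3.49 points for H3K9me3. All 24 member values, 6 in each of the 4 libraries, lay below the median of all subfamilies in the same library. Against the 125 subfamilies of highest CpG density, to which LTR2, LTR2B, LTR2C and LTR17 belong, the side varied. In PBS the medians of these 125 were -0.572 for H3K9me2 and -0.531 for H3K9me3. LTR2B, LTR2C and LTR17 lay above both and LTR2 below both. In 5-aza-CdR the medians were -0.00688 and 0.301, and of these LTRs only LTR2C for H3K9me3 lay above.

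**Figure D1:**
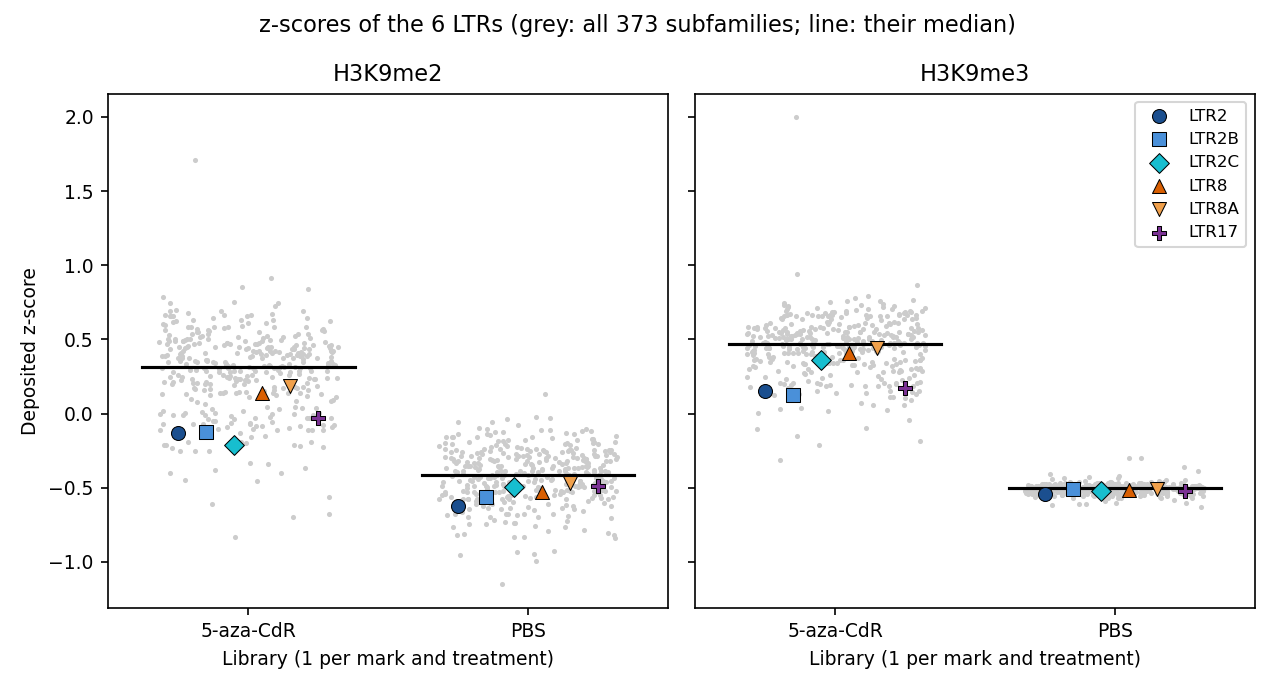
Deposited z-scores (vertical axis) of the 6 LTRs (coloured symbols) and of all 373 subfamilies (grey points) in the 5-aza-CdR and PBS libraries of each mark, with the median of all subfamilies as a black line. LTR8 and LTR8A lie highest of the 6 in 5-aza-CdR, and the H3K9me3 values in PBS are compressed between -0.542 and -0.511.

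**Figure D2:**
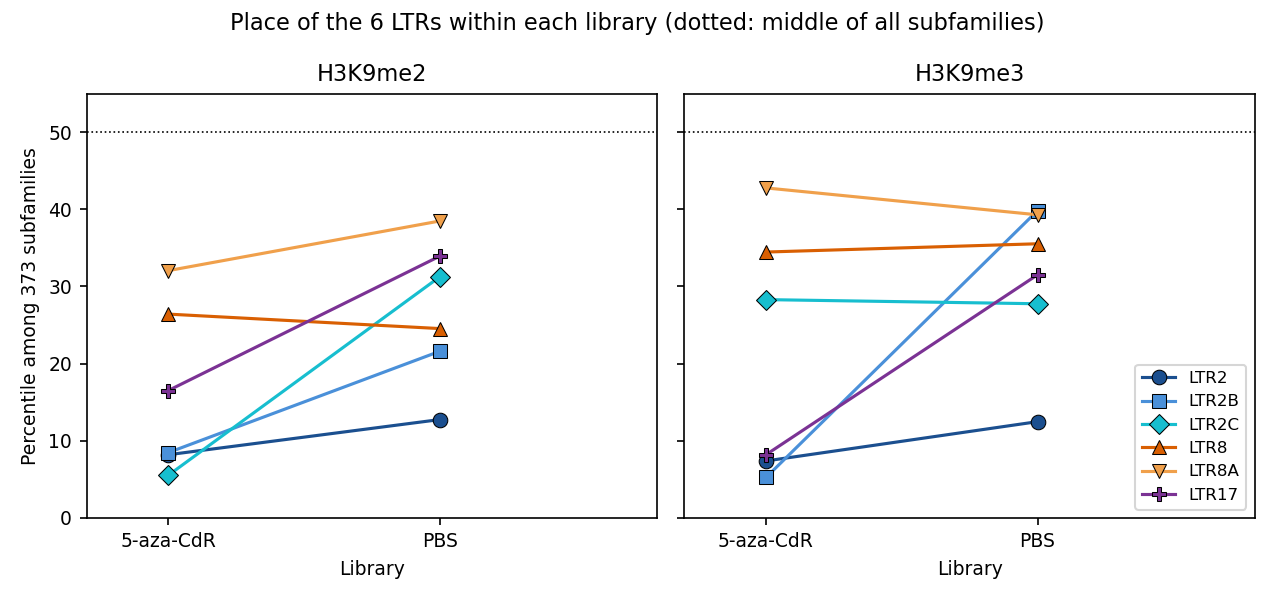
Percentile of each of the 6 LTRs among 373 subfamilies (vertical axis) in the 5-aza-CdR and PBS library of each mark, with a line joining the 2 libraries of 1 LTR. For H3K9me3 the lines of LTR2B and LTR17 are steep and that of LTR2C is level at 28.3 in 5-aza-CdR and 27.7 in PBS.

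In z-scores the members differed less from each other in PBS than in 5-aza-CdR. For H3K9me2 the 6 values spanned 0.395 in 5-aza-CdR and 0.152 in PBS, and for H3K9me3 they spanned 0.321 in 5-aza-CdR and 0.0310 in PBS. Spread over all subfamilies was also wider in 5-aza-CdR, with an SD of 0.290 in 5-aza-CdR and 0.187 in PBS for H3K9me2 and of 0.206 in 5-aza-CdR and 0.0354 in PBS for H3K9me3. In percentiles the 6 spanned 26.5 points in 5-aza-CdR and 25.7 in PBS for H3K9me2, nearly the same. For H3K9me3 they spanned 37.5 points in 5-aza-CdR and 27.3 in PBS. In 5-aza-CdR the H3K9me2 order was LTR8A, LTR8, LTR17, LTR2B, LTR2 and LTR2C. LTR2B and LTR2 were neighbours there with a gap of 0.0119 and no other subfamily between them, whereas 36 subfamilies lay between LTR8 and LTR17. The H3K9me3 order in 5-aza-CdR was LTR8A, LTR8, LTR2C, LTR17, LTR2 and LTR2B, with 74 subfamilies between LTR2C and LTR17 and 2 between LTR17 and LTR2. In PBS the H3K9me3 values of LTR2B and LTR8A were 0.000237 apart. Without replicates it cannot be said which of these gaps exceed the error of a library.

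The treatment comparison asks how the z-scores of these LTRs differed after the DNA methylation inhibitor, beside those of other LTRs. For H3K9me2 all 6 differences lay below the median of 0.702, as did 49.9% of all subfamilies. They were 0.287 for LTR2C, 0.437 for LTR2B, 0.457 for LTR17, 0.488 for LTR2, 0.654 for LTR8A and 0.669 for LTR8, with a median of 0.472. Of the 125 subfamilies of high CpG density, which hold 4 of the members, 91 lay below 0.702. Of the 124 of intermediate density, which hold LTR8 and LTR8A, 54 did. A limit of size was set 2 robust SDs to either side of the median difference, a robust SD being the scaled median absolute deviation. For H3K9me2 this put the lower limit at 0.452. LTR2C and LTR2B were below it, 2 of 6, against 8.04% of all subfamilies, and 0 of 6 were above the upper limit, against 2.95%. In robust SDs from the median LTR2C lay at -3.32, the 4th lowest of the 373, and LTR2B at -2.12. LTR17 at -1.96 and LTR2 at -1.72 were inside the limit, and LTR8 at -0.262 and LTR8A at -0.386 were close to the median. Against the 125 subfamilies of high CpG density alone, to which both called members belong, LTR2C lay at -1.55 and LTR2B at -0.77, and neither was below the limit. LTR2B was also inside the limit on the 3 other scales tried, from -1.32 to -0.99, whereas LTR2C stayed below it.

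For H3K9me3 all 6 differences again lay below the median, here 0.973, which also holds for 49.9% of all subfamilies. The differences were 0.634 for LTR2B, 0.692 for LTR17, 0.693 for LTR2, 0.881 for LTR2C, 0.922 for LTR8 and 0.956 for LTR8A, with a median of 0.787. Below 0.973 were 104 of the 125 subfamilies of high CpG density and 55 of the 124 of intermediate density. LTR2B alone was below the lower limit of 0.687, 1 of 6 against 7.24% of all subfamilies, and 0 of 6 were above the upper limit, against 1.88%. In robust SDs from the median LTR2B lay at -2.37, the 17th lowest of the 373. It was inside the limit on percentile ranks (-1.73), as a residual (-1.39) and against the subfamilies of high CpG density (-1.23), and with a limit of 3 robust SDs or 2 ordinary SDs. LTR17 and LTR2, both at -1.96, were just inside the limit. LTR2C lay at -0.643, LTR8 at -0.356 and LTR8A at -0.115. Distances of this size depend on the scale: with mean 0 and SD 1 in each library, LTR2 moved to -0.62 robust SDs for H3K9me2 and -0.70 for H3K9me3, LTR2B to -1.32 and -2.21, and LTR17 to -1.48 and -1.53. On the same scale LTR8 and LTR8A were above the H3K9me2 median, by 0.45 and 0.05 robust SDs, so the side of the median on which these 2 lie depends on the scale.

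**Figure D3:**
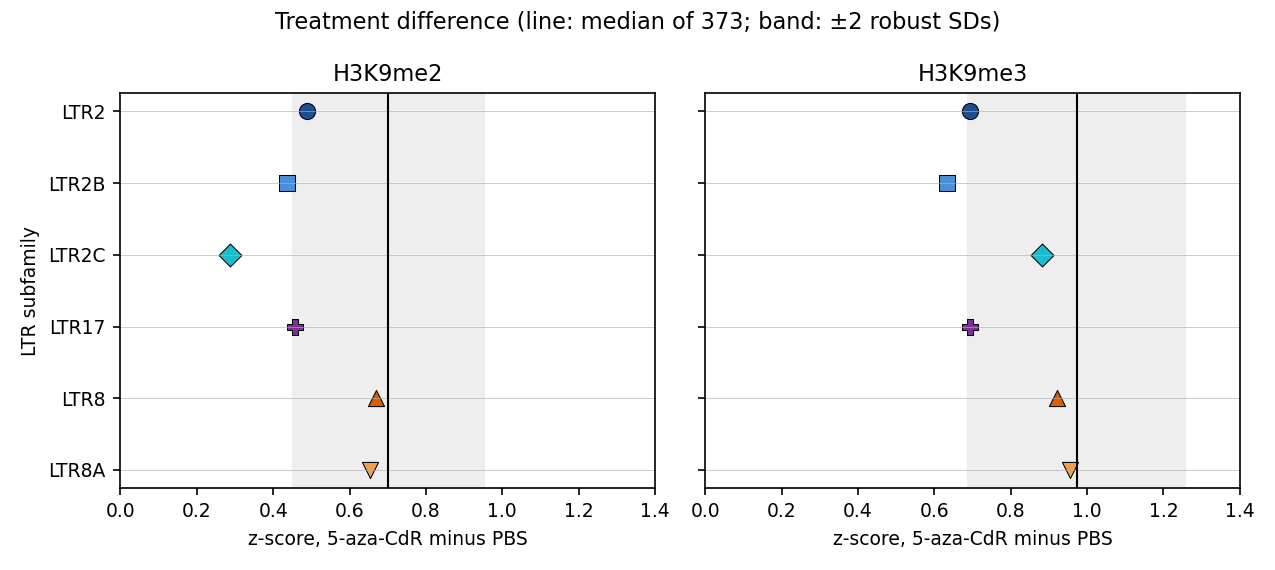
Treatment difference of the z-score (horizontal axis, 5-aza-CdR minus PBS) of each of the 6 LTRs for H3K9me2 (left) and H3K9me3 (right), with the median of 373 subfamilies as a line and 2 robust SDs to either side as a grey band. LTR2C and LTR2B fall left of the band for H3K9me2, and LTR2B alone does for H3K9me3.

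On the deposited scale LTR2C separated the marks more than the other members did. Its H3K9me3 difference, in robust SDs from the median of that mark, exceeded its H3K9me2 difference by 2.68, the 2nd highest such value of the 373. For the other 5 members this value ran from -0.248 at LTR2B to 0.272 at LTR8A as deposited. The pattern was not particular to LTR2C. LTR12, the subfamily most like it over the 4 libraries, lay at -2.34 robust SDs for H3K9me2 and -0.615 for H3K9me3. MER9a2 and MER9a3, the next most like it, had H3K9me2 differences of 0.458 and 0.503, against a median of 0.702. Their H3K9me3 differences were 0.955 and 0.865, against a median of 0.973. On other scales LTR2B also differed between marks, in the opposite direction: with SD 1 in each library it lay at -2.21 robust SDs for H3K9me3 and -1.32 for H3K9me2, and on percentile ranks at -1.73 for H3K9me3 and -0.99 for H3K9me2. The H3K9me3 value of LTR2C was the higher on the other 3 scales tried too. With SD 1 in each library LTR2C lay at -0.05 robust SDs for H3K9me3 and -2.81 for H3K9me2, on percentile ranks at 0.07 for H3K9me3 and -2.05 for H3K9me2, and as residuals at 0.32 for H3K9me3 and -2.55 for H3K9me2. Within the 5-aza-CdR libraries the percentile of LTR2C was 22.8 points higher for H3K9me3 than for H3K9me2, while within PBS it was 3.49 points lower (-3.49). LTR2B was the member with the largest gap between marks in PBS, with a percentile 18.2 points higher for H3K9me3 than for H3K9me2, and in 5-aza-CdR the value was -3.22. That PBS gap rests on compressed H3K9me3 z-scores, over which the 6 members spanned only 0.0310. LTR17 and LTR2 had gaps of -8.31 and -0.804 points in 5-aza-CdR and of -2.41 and -0.268 in PBS. No copy number or read count comes with these values, so the part that few copies or few reads may have in the LTR2C values was not tested.

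**Figure D4:**
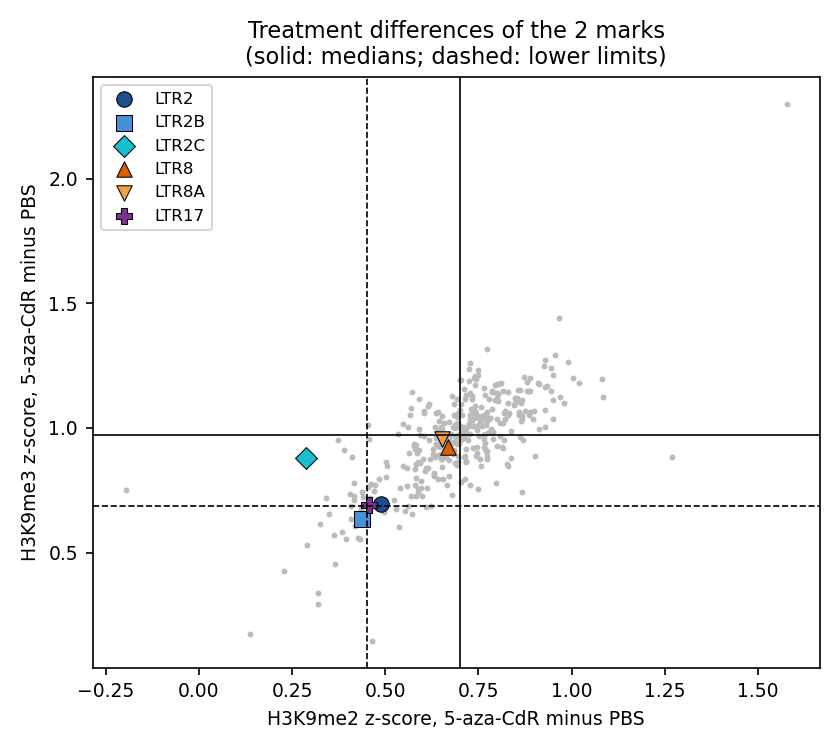
Treatment difference of the z-score for H3K9me3 (vertical axis) against that for H3K9me2 (horizontal axis), 5-aza-CdR minus PBS, with all 373 subfamilies in grey, medians as solid lines and lower limits as dashed lines. LTR2C, at 0.881 for H3K9me3 and 0.287 for H3K9me2, lies apart from LTR2, LTR2B and LTR17, which sit together near the crossing of the lower limits.

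CpG density, the only other property in the table, also divided the members. It was 0.0235 for LTR2C, 0.0215 for LTR17, 0.0202 for LTR2 and 0.0185 for LTR2B, which placed these 4 at 10th, 12th, 16th and 20th of the 373. LTR8 at 0.00839 and LTR8A at 0.00639 were 135th and 249th. With the subfamilies split by CpG density into high (125), intermediate (124) and low (124) classes of like size, the 4 denser members were in the high class and LTR8 and LTR8A in the intermediate class. CpG-rich LTRs as a class had the smaller differences: 23.2% of the high class were below the H3K9me2 limit and 20.0% below the H3K9me3 limit.

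Set against the median of their own CpG class, the members were still lower for H3K9me2, by margins from -0.297 at LTR2C to -0.0450 at LTR8. For H3K9me3 the margins ran from -0.207 at LTR2B to 0.0397 at LTR2C, the only member above the median of its CpG class. A straight line of difference on CpG density over all 373 subfamilies gave LTR2C an H3K9me2 difference of 0.514, against 0.287 measured, which lies -2.03 robust SDs from the median distance of all subfamilies to the line. With a line on log10 CpG density this value was -1.50, inside 2 robust SDs. For H3K9me3 LTR2C was on the upper side, at 0.98 robust SDs, and at 1.75 with log10 density. The other 5 members were on the lower side, from -1.22 (LTR2B) to -0.25 (LTR8) robust SDs for H3K9me2 and from -1.49 (LTR2B) to -0.33 (LTR8A) for H3K9me3. With log10 density all 5 were again on the lower side for H3K9me3, while for H3K9me2 LTR2 (0.04) and LTR8 (0.0032) were on the upper side by a small margin.

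**Figure D5:**
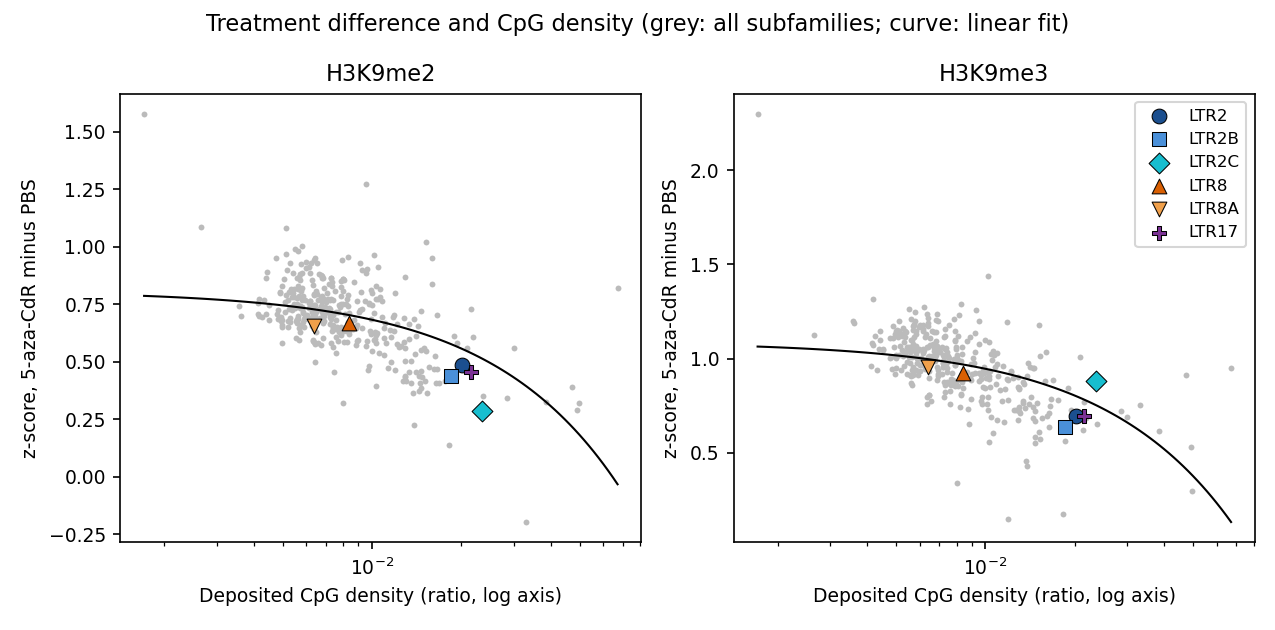
Treatment difference of the z-score (vertical axis, 5-aza-CdR minus PBS) against the deposited CpG density (horizontal log axis) for H3K9me2 (left) and H3K9me3 (right), with all 373 subfamilies in grey and the straight-line fit on CpG density drawn as a curve on the log axis. LTR2C is below the fit for H3K9me2 and above it for H3K9me3. LTR2, LTR8, LTR8A and LTR17 lie nearer to the fit than LTR2C, on the lower side, in both.

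The levels in each library were set against CpG density in the same way, as the distance to a straight line over all 373 subfamilies in robust SDs from the median distance. LTR2C was at -0.302 in 5-aza-CdR and 1.34 in PBS for H3K9me2, and at 1.11 in 5-aza-CdR and 1.09 in PBS for H3K9me3. LTR17 was at 0.349 in 5-aza-CdR and 1.15 in PBS for H3K9me2, and at -0.531 in 5-aza-CdR and 0.979 in PBS for H3K9me3. LTR2B was at -0.644 in 5-aza-CdR and 0.213 in PBS for H3K9me2, and at -1.29 in 5-aza-CdR and 0.950 in PBS for H3K9me3. LTR2, LTR8 and LTR8A were on the lower side in all 4 libraries, between -0.986 and -0.0389. All of these distances were inside 2 robust SDs.

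LTRs of 3 other class I groups known as promoters or enhancers, LTR7 of HERV-H, LTR10 of HERV-I and LTR12 of ERV9, give a scale for these values. The median H3K9me2 difference was 0.472 for the 6 members, against 0.432 for 4 LTR7, 0.631 for 8 LTR10 and 0.385 for 7 LTR12 subfamilies and 0.702 for all. The median H3K9me3 difference was 0.787 for the 6 members, against 0.623 for LTR7, 1.06 for LTR10, 0.719 for LTR12 and 0.973 for all. Below the H3K9me2 limit were 2 of the 6 members, 3 of 4 LTR7, 1 of 8 LTR10 and 5 of 7 LTR12 subfamilies. The share was 8.04% over all subfamilies and 23.2% in the high-CpG class. Below the H3K9me3 limit were 1 of the 6 members, 4 of 4 LTR7, 2 of 8 LTR10 and 3 of 7 LTR12 subfamilies. Here the share was 7.24% over all subfamilies and 20.0% in the high-CpG class. That class holds all of these LTR7 and LTR12 subfamilies and all LTR10 but LTR10E. Of the members it holds only 4, among them LTR2B and LTR2C, the members below a limit. LTR8 and LTR8A, in the intermediate class, had the largest differences of the 6 for both marks, so the member medians and counts are not matched to these groups in CpG density. In PBS the H3K9me2 median was -0.515 for the members, against -0.631 for LTR7, -0.648 for LTR10 and -0.680 for LTR12. These groups are related by descent and vary in CpG density, and no difference between them was tested.

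The subfamilies most like each member were found by the Euclidean distance over the 4 libraries, each set to mean 0 and SD 1. LTR2 was nearest to LTR14 (distance 0.116), LTR7C (0.204) and LTR5_Hs (0.269), and LTR2B to LTR19C (0.241), MER11C (0.350) and MER11B (0.415). LTR8 was nearest to MER61D (0.259), MER4A (0.260) and MER83 (0.288), and LTR8A to MSTB (0.0904), MSTA (0.198) and MER4D (0.208). LTR17 was nearest to MER61B (0.373), LTR9B (0.427) and LTR1B (0.433). LTR2C had no close match, its nearest being LTR12 (0.624), MER9a2 (0.704) and MER9a3 (0.776). Among the members themselves LTR8 and LTR8A were 0.424 apart and LTR17 and LTR2B 0.592. LTR2C was 1.37 from LTR2 and 1.27 from LTR2B, farther than it was from LTR17 (1.10) and LTR8 (1.25). It was 1.46 from LTR8A, and the median distance of LTR2C to all other subfamilies was 2.31.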

How the data were processed

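Per the labels, H3K9me2 and H3K9me3 native ChIP-seq was made in HCT116 cells after 5-aza-CdR or PBS, with 1 library for each of the 4 groups. Per the file headers, the deposited values are the authors' z-score (a standardised score) per LTR subfamily and library, and a CpG density, a ratio whose denominator is not stated. The submitters' processing notes name Bowtie2 and hg19. Not given in the sources are the use of an input, the handling of multiply mapped reads, and the set over which z-scores were computed. These steps could move a whole library, or repeats with many near-identical copies, and their part was not tested. Depth is unknown, so no counting interval was possible.

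From these values were computed treatment differences, percentiles, robust SDs, CpG fits and profile distances, with Python 3.11.15, pandas 2.3.3 and NumPy 2.4.6. The code was tested on simulated data. With 1 library per group no test was made and no p-value computed. The members, lists and measures were chosen with earlier results of these data known. Subfamilies were named by rule: the 6 members, the 3 nearest profiles of each, and the LTR7, LTR10 and LTR12 lists. LTR sequences were not used here.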

Additional observations from a re-analysis of the deposited data

How the results depend on the processing

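Without replicates, these values describe 4 libraries on the authors' scale. The count of members below the H3K9me2 limit, 2 as deposited, was 1 with SD 1 in each library, on percentile ranks, as residuals from the principal line through both treatments, with a limit of 3 robust SDs and with 2 ordinary SDs. In each of these the member was LTR2C. Against the high-CpG class alone, which holds 4 of the members, it was 0. The count for H3K9me3, 1 as deposited, stayed 1 with SD 1 and was 0 on ranks, as residuals, against the high-CpG class and with both other limits. Members within the limit changed sides of the median with the scale: for H3K9me2, LTR8 and LTR8A lay above it as residuals (0.56 and 0.11), and for H3K9me3 LTR2C lay above it on ranks (0.07), as a residual (0.32) and against the high-CpG class (0.24). No member was above a limit under any of these alternatives. As deposited, 8.04% of all subfamilies were below the H3K9me2 limit and 7.24% below the H3K9me3 limit. The share of all subfamilies was not computed under the alternatives, so their member counts cannot be set against a background. Leaving out the 2 subfamilies with round H3K9me3 z-scores changed no count, and for H3K9me2 there were 0 such subfamilies. No paired analysis was possible because each group holds 1 library.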
